A study of Mus musculus with 2 samples.

Results

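The genes of prostaglandin and leukotriene synthesis were followed in the CD45+ cells of the mouse heart after pressure overload. They were chosen by symbol, as *Ptgs1*, *Ptgs2*, *Ptges*, *Ptges2*, *Tbxas1*, *Hpgds*, *Alox5*, *Alox5ap*, *Lta4h* and *Alox15*, and all 10 were found among the 27809 genes of the matrix. These enzymes act on arachidonic acid, a fatty acid that phospholipases release from membranes. The cyclooxygenases turn it into prostaglandin H, from which separate synthases make prostaglandin E, prostaglandin D and thromboxane. In the other branch, 5-lipoxygenase, helped by its activating protein, makes leukotriene A, which leukotriene A4 hydrolase turns into leukotriene B. In macrophages the cyclooxygenase PTGS2 is known as inducible and PTGS1 as constitutive, and 12/15-lipoxygenase is known as a *gene* of resident macrophages of the peritoneal cavity.

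Hearts of male mice of C57BL/6 background, aged 8 weeks by the study's methods, were taken 1 week after surgery. In transverse aortic constriction (TAC), a suture narrows the aorta and so raises the load on the heart, and sham surgery is its control. The groups were wild-type (WT) mice after sham surgery, CD3e-/- mice after sham surgery, WT mice after TAC, CD3e-/- mice after TAC, and WT mice that had TAC and were given an antibody that depletes CD8+ T cells. CD3e-/- mice lack a chain of the T cell receptor complex in every cell and so make no mature T cells. Hashtags, which mark the group of a cell, allowed all 5 groups to be read in 1 pooled library. It was made by TAS-Seq with a BD Rhapsody system, which captures each cell with a barcoded bead. Each group was 1 sample, and the number of mice behind it is not given in the sources used here. The groups were therefore compared by their values, without a test. Values by group are given in the order WT sham, CD3e-/- sham, WT TAC, CD3e-/- TAC and the TAC group labelled CD8-depleted.

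Of 5363 columns, 5263 cells in the 5 groups were kept (1000, 835, 1615, 919 and 894), with 91899777 to 208758777 reads per group and medians of 75442 to 117788 reads per cell. The deposited values are reads and not molecules, so the 95% intervals below cover counting error alone, and fewer cells of a type cannot be told apart from less RNA per cell in sums over a group. *Ptprc*, the *gene* of CD45, had reads in 96.7% to 98.6% of cells. *Cd3g*, a chain of the T cell receptor complex, lay at 45.6, 0.555, 17.6, 0.0661 and 22.5 reads per 1000000 reads (CPM). *Cd3e* itself lay at 17.78, 3.73, 10.85, 5.64 and 13.61 CPM, lower in both CD3e-/- groups. Reads of it were found in 5.03% and 9.03% of the cells of the CD3e-/- groups, against 5.70% to 6.90% in the others. *Cd8a* lay at 9.81, 0.979, 7.40, 0.558 and 6.55 CPM, and *Cd8b1* at 7.73, 0, 10.8, 0 and 7.74 CPM, so the depletion was barely to be seen against WT TAC (8 of 894 cells against 16 of 1615 with a read of *Cd8a*), and the group is named by its label throughout.

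Cells were sorted into classes by the CPM of marker genes in the single cell. A cell with at least 50 CPM of *Csf1r*, the receptor for the macrophage growth factor M-CSF, and 500 CPM of *Lyz2*, a lysozyme of myeloid cells, was in the monocyte and macrophage gate, which held 3782 cells (639, 532, 1224, 712 and 675). Within it, 44 cells were Saa3+ (0, 0, 5, 29 and 10 by group), 261 were Cd209a+, 214 were Lyve1+ (76, 33, 55, 17 and 33), 539 were Ly6c2+ (24, 33, 166, 171 and 145), 1257 were Ccr2+ Ly6c2- and 1467 were Ccr2- Lyve1-. *Saa3* is an acute phase *gene*, *Cd209a* a lectin *gene* of dendritic cells and some monocytes, *Lyve1* a mark of resident cardiac macrophages, and *Ccr2* and *Ly6c2* marks of monocytes. The classes are ranges of these genes and not proven cell types. Outside the gate lay, among others, 419 cells of a B cell gate, 151 of a T and NK cell gate, 34 of a granulocyte gate and 76 of a mast cell or basophil gate. The granulocyte gate, set by *Csf3r* and *S100a8*, held 19641 CPM of *S100a9* and 2019 CPM of *Retnlg*, further neutrophil genes. The mast cell or basophil gate, set by *Cpa3* or *Mcpt8*, held 31471 CPM of *Cma1* and 21901 CPM of *Tpsb2*, proteases of mast cells, and 2696 CPM of *Kit*.

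Promoter sequences are shown for 3 members that are described further below, and no result draws on the sequences. *Ptgs1* and *Ptgs2* are the pair of cyclooxygenases that differed in how they went with immediate early genes, and *Alox5* was lower in each TAC group than in both sham groups. In RefSeq on GRCm38.p6, *Ptgs2* lies at chr1:150100031-150108234, *Ptgs1* at chr2:36216742-36258593 and *Alox5* at chr6:116410071-116461178. Each window holds 180 bases before and 30 after the start that the RefSeq promoter table gives, on the strand of the *gene*, at chr1:150099851-150100060 (plus strand), chr2:36230246-36230455 (plus strand) and chr6:116461149-116461358 (minus strand). Capitals mark matches to 5 motifs, searched on both strands. They were the TATA box as TATAAA, the core of a cAMP response element as CGTCA, an E-box as CACGTG, a GC box as GGGCGG and an AP-1 site as TGANTCA.
Ptgs2: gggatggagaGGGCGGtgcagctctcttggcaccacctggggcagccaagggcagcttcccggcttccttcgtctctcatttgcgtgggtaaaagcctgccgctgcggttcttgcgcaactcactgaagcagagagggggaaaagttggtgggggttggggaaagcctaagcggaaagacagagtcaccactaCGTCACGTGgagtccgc
Ptgs1: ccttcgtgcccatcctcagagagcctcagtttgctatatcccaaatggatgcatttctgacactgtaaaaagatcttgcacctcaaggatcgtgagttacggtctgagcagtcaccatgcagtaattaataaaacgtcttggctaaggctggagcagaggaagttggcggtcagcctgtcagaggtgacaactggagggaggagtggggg
Alox5: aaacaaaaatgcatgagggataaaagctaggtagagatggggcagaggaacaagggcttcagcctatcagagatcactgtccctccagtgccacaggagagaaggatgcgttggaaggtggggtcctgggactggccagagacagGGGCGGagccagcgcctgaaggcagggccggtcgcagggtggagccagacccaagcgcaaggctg
The *Ptgs2* window held GGGCGG at bases 11 to 16, and CGTCA at bases 194 to 198 overlapped CACGTG at bases 197 to 202, both after the start. The *Ptgs1* window lies wholly inside the span of the *gene* given above. The *Alox5* window held GGGCGG at bases 146 to 151, and the *Ptgs1* window held none of the 5. Among 32851 mouse promoter windows of this length, 9.71% held a TATA box in this form, 17.1% the cAMP response element core, 5.6% the E-box, 32.4% the GC box and 5.71% the AP-1 site. Of the 8 members with a window in the table, *Ptges* also held GGGCGG, *Ptges2* held CACGTG, *Tbxas1* held a TATA box and an AP-1 site, and *Hpgds* and *Lta4h* held none. Such matches describe letters and not binding sites.

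Within the monocyte and macrophage gate, most members differed more between classes than between groups. *Hpgds* and *Alox5* had their highest gate levels in Lyve1+ cells, *Ptgs2* in Ly6c2+ cells, *Lta4h* in Cd209a+ cells, and *Alox15* lay almost wholly in Saa3+ cells. Before thinning, *Alox5ap* had reads in at least 76.9% and *Tbxas1* in at least 52.2% of the cells of every gate class. The B cell gate was set beside this gate as a guide to free RNA. After thinning each cell to 30000 reads, the share of cells with a read in the gate and in the B cell gate was 27.6% and 3.03% for *Ptgs1*, 9.04% and 0% for *Ptgs2*, and 49.3% and 5.51% for *Tbxas1*. It was 31.8% and 8.54% for *Hpgds*, 26.6% and 2.48% for *Alox5*, 87.7% and 4.96% for *Alox5ap*, and 36.1% and 18.7% for *Lta4h*. For *Lta4h* the B cell gate is no such guide, as it lay at 46.5 CPM there and at 7.11 CPM in the granulocyte gate. Nor is it one for *Ptgs2*, *Alox5ap* and *Alox15*. Error correction left no value of *Ptgs2* under 6 reads and none of the others under 8, so lower counts in B cells could not be seen. For *Ptges* (1.75% and 0.551%), *Ptges2* (7.56% and 3.58%) and *Alox15* (0.519% and 0%) the share in the gate was low. Before thinning, the median depth was 102300 reads in the gate and 48329 in the B cell gate. The plot of levels by class shows the classes in and outside the gate.

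**Figure D1:**
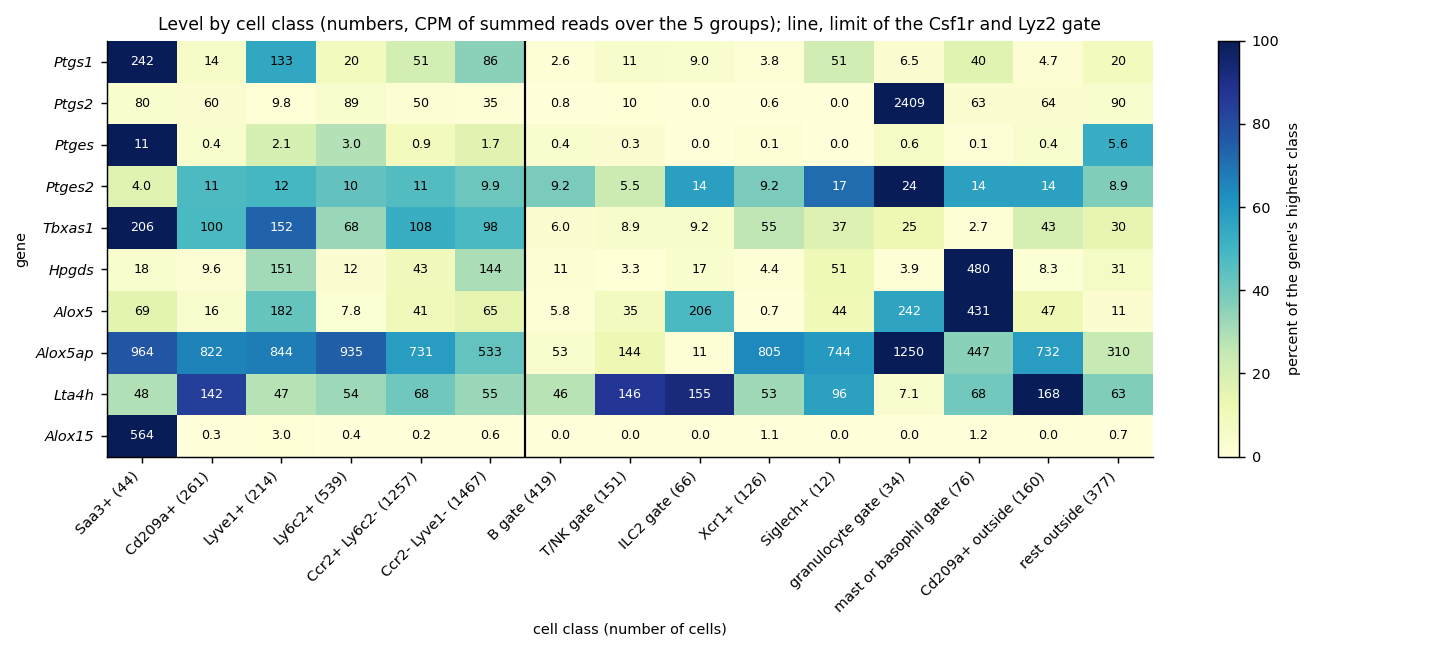
Level of each member by cell class, over all 5 groups, with the CPM of summed reads as a number and its percent of the *gene*'s highest class as color (classes on the x axis with their number of cells, the line marking the limit of the gate). *Alox15* stands out in Saa3+ cells (564 CPM), *Ptgs2* in the granulocyte gate (2409 CPM) and *Hpgds* in the mast cell or basophil gate (480 CPM).

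*Ptgs1*, the constitutive cyclooxygenase, was highest in Saa3+ cells (242 CPM), followed by Lyve1+ (133 CPM) and Ccr2- Lyve1- cells (85.6 CPM), and lowest in Ly6c2+ (20 CPM) and Cd209a+ cells (13.8 CPM). The Ccr2- Lyve1- class gave 41.3% of all reads of *Ptgs1*. In the gate it lay at 68.2 CPM (95% interval 66.2 to 70.3) in WT sham, 63.5 (61.5 to 65.4) in CD3e-/- sham, 52.0 (50.9 to 53.1) in WT TAC, 77.4 (75.8 to 79.0) in CD3e-/- TAC and 56.4 (54.8 to 58.0) in the TAC group labelled CD8-depleted. By summed reads CD3e-/- TAC was the highest group and WT TAC the lowest. The mean of single-cell CPM was 83.3, 77.5, 63.6, 66.7 and 61.5, highest in WT sham, and the share of thinned cells with a read was 27.1%, 30.4%, 28.0%, 26.4% and 26.8% with overlapping intervals, so the order was one of reads and not of cells. Saa3+ cells took part in this order, as they held 254 CPM of *Ptgs1* in 29 cells of CD3e-/- TAC and 255 CPM in 10 cells of the TAC group labelled CD8-depleted, but 25.3 CPM in 5 cells of WT TAC, and sham groups had none of these cells. The log2 ratio of TAC to sham in CD3e-/- mice was 0.25 with Saa3+ cells and -0.06 without them. In Ccr2- Lyve1- cells *Ptgs1* lay at 93.7, 85.4, 70.2, 111 and 75.9 CPM by group, where 1 cell gave 14.5% of the reads of CD3e-/- TAC. By the mean of single-cell CPM it lay there at 100.3, 103, 84.1, 101 and 79.2, with both sham groups and CD3e-/- TAC close to each other.

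*Ptgs2*, the inducible cyclooxygenase, had its highest level in the granulocyte gate, at 2409 CPM and with reads in 29 of 34 cells. This gate held 0.241% of all reads and 11% of the reads of *Ptgs2*. In the monocyte and macrophage gate it was highest in Ly6c2+ cells (88.5 CPM) and Saa3+ cells (79.8 CPM) and lowest in Lyve1+ cells (9.83 CPM). By thinned cells, 20.2% of Ly6c2+ cells and 15% of Cd209a+ cells had a read, against 3.33% of Lyve1+ cells. Because error correction left no value of *Ptgs2* under 6 reads, these shares do not count cells with fewer reads.

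By group, *Ptgs2* in the gate lay at 33.0 CPM (31.6 to 34.4), 61.4 (59.5 to 63.3), 46.6 (45.5 to 47.6), 40.8 (39.6 to 41.9) and 78.9 (77.0 to 80.8). The TAC group labelled CD8-depleted was highest and WT sham lowest, and the CD3e-/- groups lay on both sides of WT TAC. These levels came from few cells, since 37, 49, 100, 70 and 88 cells had reads and 6, 8, 14, 10 and 15 cells held 50% of them, and the top cell alone gave 15.1%, 12.2%, 6.54%, 8.37% and 5.24%. The share of thinned cells with a read was 5.90%, 9.41%, 8.06%, 9.80% and 12.6%, and with at least 300 CPM 2.62%, 4.71%, 3.69%, 3.60% and 6.70%. The order of the groups also differed between classes. In Ly6c2+ cells *Ptgs2* lay at 24.0, 138, 115, 68.0 and 86.9 CPM, in Ccr2+ Ly6c2- cells at 47.5, 50.9, 49.8, 18.6 and 88.3 CPM, and in Ccr2- Lyve1- cells at 27.2, 32.8, 20.7, 35.7 and 74.0 CPM. The TAC group labelled CD8-depleted was highest in the last 2 classes, also without the top cell of each group (78.5 and 61.4 CPM). The value of CD3e-/- sham in Ly6c2+ cells came from 7 of 33 cells, and 1 cell gave 46.1% of its reads. Without the top cells Ly6c2+ cells held 6.67, 76.3, 94.3, 59.2 and 68.9 CPM, highest in WT TAC, and 21.2% of thinned cells had a read in both CD3e-/- sham and WT TAC.

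Granulocytes bear on *Ptgs2* in all CD45+ cells. The granulocyte gate held 0, 4, 7, 10 and 13 cells and gave 0%, 11.5%, 3.46%, 18.1% and 15.8% of the reads of *Ptgs2* of each group. With these cells *Ptgs2* lay at 31.8, 55, 41.7, 51.4 and 91.7 CPM of all kept cells, and without them at 31.8, 48.8, 40.3, 42.2 and 77.6 CPM. The order of CD3e-/- TAC and CD3e-/- sham was the same with and without them, and the TAC group labelled CD8-depleted stayed highest. The neutrophil genes *S100a9* (0, 70.5, 26.8, 16.5 and 73.9 CPM) and *S100a8* (0, 60.7, 22.8, 19.4 and 63.9 CPM) were also found within the monocyte and macrophage gate. *S100a9* had reads in 0, 2, 4, 10 and 5 cells there and *S100a8* in 0, 2, 8, 11 and 6. Both were highest in the same 2 groups as *Ptgs2* there. In these 2 groups they rested on 2 cells of CD3e-/- sham and on 5 and 6 of the TAC group labelled CD8-depleted, where *Ptgs2* had reads in 49 and 88 cells. Their part in the result was not tested.

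Immediate early genes, which are induced within minutes of a stimulus and also by cell dissociation, were summed over *Fos*, *Fosb*, *Jun*, *Junb*, *Egr1*, *Atf3*, *Nr4a1*, *Dusp1*, *Ier3*, *Zfp36*, *Hspa1a* and *Hspa1b*. Their sum in the gate was 17898, 16073, 9587, 8856 and 9563 CPM, so both sham groups lay above the TAC groups. Cells at or above the median of this sum held 76.2 CPM of *Ptgs2* and those below it 23.9 CPM. For *Ptgs1* the order was the other way round, with 45.5 CPM at or above the median and 80.6 CPM below it. The median was taken over all classes of the gate, and the sum differed between them. In WT TAC it was 11440 CPM in Ly6c2+ and 6659 CPM in Ccr2- Lyve1- cells, and in WT sham 16054 and 19892 CPM. The part of the classes in these orders was not tested. In the cells below the median *Ptgs2* lay at 9.44 CPM in WT sham (2 cells with reads), 57.1 in CD3e-/- sham, 20.6 in WT TAC, 20.4 in CD3e-/- TAC and 26.3 in the TAC group labelled CD8-depleted. In the cells at or above it *Ptgs2* lay at 45.9, 63.4, 77.2, 63.3 and 135 CPM. WT sham was lowest in both sets of cells, and the highest group was CD3e-/- sham in the first and the TAC group labelled CD8-depleted in the second.

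Prostaglandin E synthases take the product of the cyclooxygenases further. *Ptges*, the inducible microsomal synthase, was rare, with 25, 99, 286, 346 and 97 reads in the gate or 0.392, 1.53, 1.77, 3.0 and 1.14 CPM. In the TAC group labelled CD8-depleted 1 cell gave 56.7% of these reads, and in CD3e-/- TAC 1 cell gave 35.3%, so the groups could not be ordered. After thinning, 4 of 331 gate cells with a read of *Ptgs2* also had one of *Ptges*, which is 1.21% (exact interval 0.330 to 3.07), against 1.80% (1.38 to 2.31) of cells without *Ptgs2*. The intervals overlap, so a link between both genes was not detectable at this depth. *Ptges2*, the other membrane-associated synthase, lay at 13.9, 13.5, 11.2, 6.18 and 10.1 CPM, lowest in CD3e-/- TAC, and between 3.98 and 11.7 CPM in the gate classes. Its mean of single-cell CPM was 14.3, 12.8, 10.7, 8.80 and 9.06, with CD3e-/- TAC close to the TAC group labelled CD8-depleted.

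*Tbxas1*, the thromboxane synthase, varied little by group, at 104, 115, 99.1, 109 and 89.7 CPM. By class it lay at 206 CPM in Saa3+ and 152 CPM in Lyve1+ cells and at 68.1 CPM in Ly6c2+ cells, and outside the gate at 54.5 CPM in Xcr1+ cells and 6.00 CPM in the B cell gate. Every gate class had a read in at least 39.1% of thinned cells. Within Lyve1+ cells it lay at 143, 217, 128, 191 and 102 CPM, highest in both CD3e-/- groups, but these had 33 and 17 cells there and 1 cell gave 23.3% and 23.2% of the reads.

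*Hpgds*, the hematopoietic prostaglandin D synthase, was highest in the gate in the Lyve1+ and Ccr2- Lyve1- classes. It lay at 151 CPM in Lyve1+ and 144 CPM in Ccr2- Lyve1- cells, against 43.3 CPM in Ccr2+ Ly6c2- cells, 11.9 CPM in Ly6c2+ and 9.59 CPM in Cd209a+ cells. The Ccr2- Lyve1- class gave 55.5% of its reads. By group it lay in the gate at 88.5 CPM (86.2 to 90.8), 60.3 (58.4 to 62.2), 79.3 (77.9 to 80.7), 63.1 (61.7 to 64.6) and 66.0 (64.2 to 67.7), so WT sham and WT TAC were the highest. Within Ccr2- Lyve1- cells *Hpgds* lay at 111 CPM in CD3e-/- sham and at 146 to 153 CPM in the other groups. By the mean of single-cell CPM, CD3e-/- sham was also lowest there but less apart, at 142 against 156 to 175.

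Mast cells are a known source of prostaglandin D, and the mast cell or basophil gate held 480 CPM of *Hpgds* with a read in 84.2% of thinned cells. It held 35, 27, 7, 2 and 5 cells by group. It gave 24.3% and 17.3% of the reads of *Hpgds* in the sham groups, and 1.96%, 0.288% and 2.08% in the TAC groups. In all kept cells *Hpgds* lay at 81.7 CPM in WT sham and 66.9 CPM in WT TAC, and without this gate at 64.1 and 65.8 CPM. Over all kept cells, the lower level of *Hpgds* in WT TAC was thus found only with these cells counted. In CD3e-/- mice the levels were 55.3 and 56.2 CPM with the gate and 46.7 and 56.1 CPM without it.

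*Alox5*, which encodes 5-lipoxygenase, was lower after TAC in both genotypes. It lay in the gate at 83.4 CPM (81.2 to 85.7) in WT sham, 63.5 (61.6 to 65.5) in CD3e-/- sham, 39.2 (38.2 to 40.2) in WT TAC, 35.4 (34.3 to 36.5) in CD3e-/- TAC and 48.5 (47.0 to 49.97) in the TAC group labelled CD8-depleted. No TAC group reached a sham group. The share of thinned cells with a read was 37.0% (33.2 to 41.0), 30.8%, 22.8% (20.5 to 25.3), 22.1% and 25.1%. The top cell gave 2.59% to 4.51% of the reads of a group, so no single cell set these levels.

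*Alox5* had its highest gate level in Lyve1+ cells (182 CPM, reads in 64.3% of thinned cells), followed by Saa3+ (68.7 CPM), Ccr2- Lyve1- (65.0 CPM) and Ccr2+ Ly6c2- cells (41.2 CPM), and its lowest in Ly6c2+ cells (7.83 CPM, reads in 6.18%). The Lyve1+ class held 3.93% of all reads and 14.9% of those of *Alox5*. Within Lyve1+ cells the intervals of WT sham and WT TAC overlapped, with 207 CPM (196 to 218), 129, 200 (189 to 211), 154 and 190 CPM by group. In Ccr2- Lyve1- cells it lay at 102, 78.4, 55.2, 33.9 and 74.0 CPM and in Ccr2+ Ly6c2- cells at 64.2, 71.2, 29.3, 34.7 and 38.2 CPM, lower in each TAC group than in the sham group of the same genotype. Lyve1+ cells made up 11.9% of the gate in WT sham and 4.49% in WT TAC, and 6.20% and 2.39% in CD3e-/- mice, while Ly6c2+ cells made up 3.76% and 13.6%, and 6.20% and 24.0%.

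The lower *Alox5* after TAC was parted into the shares of the classes and the level within them, on the mean of single-cell CPM, where each cell has the same weight. In WT mice the mean was 99.8 CPM in sham and 50.3 CPM in TAC, a difference of -49.5, of which -19.5 came from the shares of the classes and -30.0 from the levels within them. Ccr2- Lyve1- cells gave -18.3 and Ccr2+ Ly6c2- cells -12.4 of the latter, and Lyve1+ cells 0.729. In CD3e-/- mice the difference was -37.5, with -7.70 from the shares and -29.8 from the levels, of which Ccr2+ Ly6c2- cells gave -18.3 and Lyve1+ cells 0.0207. For *Hpgds* both parts had opposite signs, with -29.6 from the shares and 17.4 from the levels in WT mice, and -19.8 and 5.42 in CD3e-/- mice. The plot of both parts shows the members side by side. The immediate early sum also differed between sham and TAC within Ccr2- Lyve1- cells (19892, 19343, 6659, 6225 and 7692 CPM), and its part in the result was not tested.

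**Figure D2:**
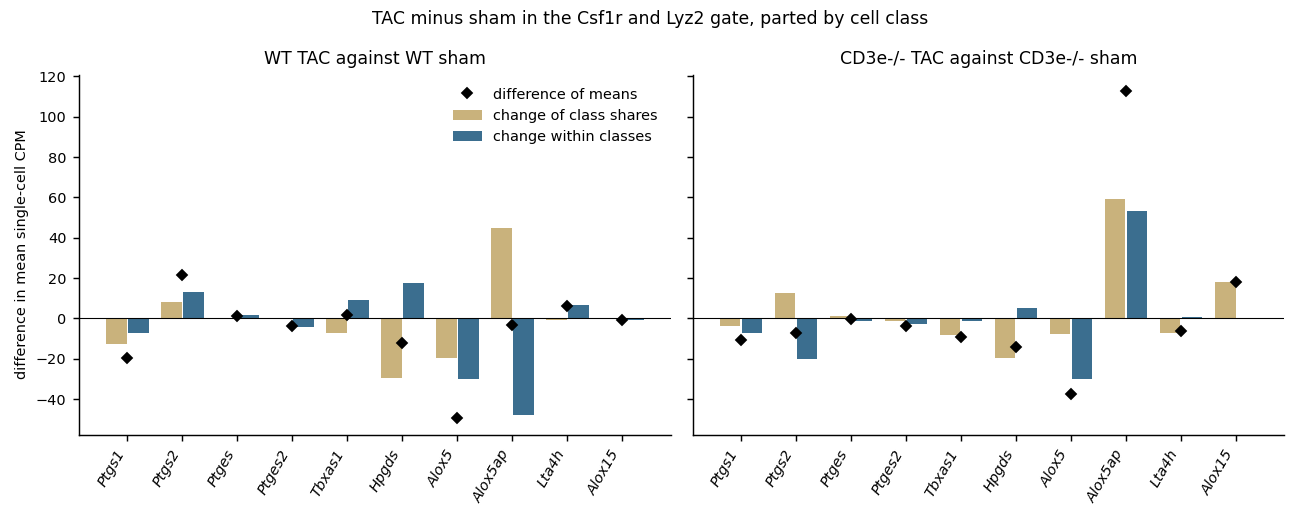
Difference between TAC and sham in the mean single-cell CPM of each member in the monocyte and macrophage gate, parted into class shares and levels within classes, in WT and CD3e-/- mice. Diamonds give the whole difference. For *Alox5* the bars of both parts are below 0 in both genotypes, and for *Hpgds* they point in opposite directions.

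Outside the gate, *Alox5* lay at 431 CPM in the mast cell or basophil gate, 242 CPM in the granulocyte gate and 206 CPM in cells with *Gata3* and *Il7r*, genes of type 2 innate lymphoid cells, which are called the ILC2 gate here. The mast cell or basophil gate held 1.04% of all reads and 9.34% of those of *Alox5*. In all kept cells without that gate, *Alox5* still lay at 70.0, 56.6, 34.1, 32.5 and 44.4 CPM, with the order of the groups as in the gate.

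*Alox5ap*, whose protein presents arachidonic acid to 5-lipoxygenase, had another distribution. It lay at 675, 723, 670, 824 and 712 CPM by group, highest in CD3e-/- TAC. By class it lay between 533 CPM in Ccr2- Lyve1- cells and 964 CPM in Saa3+ cells, and 935 CPM in Ly6c2+ cells, where *Alox5* was lowest. In Lyve1+ cells it lay at 750, 632, 835, 1228 and 775 CPM and in Ly6c2+ cells at 751, 1097, 870, 975 and 952 CPM. The 1228 CPM of CD3e-/- TAC came from 17 cells, and 1 cell gave 21.4% of the reads. Xcr1+ cells, which carry a chemokine receptor of dendritic cells, had *Alox5ap* at 805 CPM and *Alox5* at 0.745 CPM, and the ILC2 gate had *Alox5ap* at 11.1 CPM and *Alox5* at 206 CPM. After thinning, 89.8% of gate cells with *Alox5* and 86.9% of those without it had a read of *Alox5ap*. No value of *Alox5ap* was under 8 reads.

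**Figure D3:**
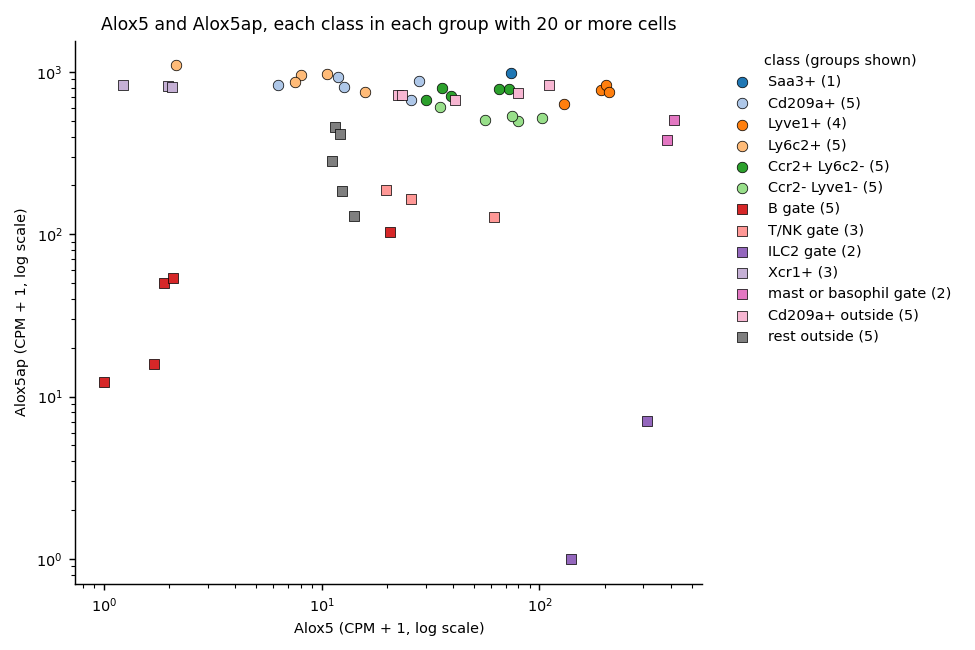
Level of *Alox5* against that of *Alox5ap* in CPM plus 1, on log axes, for each cell class in each group with at least 20 cells (circles inside the monocyte and macrophage gate, squares outside). Lyve1+ units lie high on both axes, Ly6c2+ and Xcr1+ units are low in *Alox5* and high in *Alox5ap*, and ILC2 gate units are the reverse.

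*Lta4h*, the hydrolase that makes leukotriene B, was highest in the gate in Cd209a+ cells (142 CPM, reads in 70.0% of thinned cells) and lay at 46.9 to 67.8 CPM in the other gate classes. Outside it lay at 168 CPM in Cd209a+ cells that did not meet the gate, 155 CPM in the ILC2 gate and 146 CPM in the T and NK cell gate. By group it lay in the gate at 71.5, 86.6, 66.1, 65.5 and 56.4 CPM, with CD3e-/- sham highest and all TAC groups below both sham groups. By the mean of single-cell CPM WT sham was the lowest group, at 52.5, 68.8, 58.7, 62.4 and 55.1. The share of thinned cells with a read also went another way, at 30.8%, 37.6%, 35.1%, 41.8% and 35.3%. In Cd209a+ cells it lay at 114, 159, 160, 135 and 115 CPM. In single cells, 33.2% (30.2 to 36.3) of thinned gate cells with *Alox5* and 37.1% (35.3 to 38.9) of those without it had a read of *Lta4h*, and the intervals overlapped.

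*Alox15*, the 12/15-lipoxygenase, was almost confined to few cells of 2 groups. The gate held 61 reads in WT sham (3 cells), none in CD3e-/- sham, 60 in WT TAC (1 cell), 5925 in CD3e-/- TAC (9 cells) and 1418 in the TAC group labelled CD8-depleted (7 cells), which are 0.956, 0, 0.372, 51.4 and 16.6 CPM. Since no value of *Alox15* was under 8 reads, the 0 of CD3e-/- sham is a listed value and no fold is given against it. Saa3+ cells gave 95% of the reads of *Alox15* with 2.0% of all reads.

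Among the 44 Saa3+ cells 13 had reads of *Alox15*, namely 8 of 29 in CD3e-/- TAC, 5 of 10 in the TAC group labelled CD8-depleted and 0 of 5 in WT TAC. The level in these 13 cells was between 150 and 4052 CPM, with 4046 CPM in the highest cell of the TAC group labelled CD8-depleted. The other 7 gate cells with reads held 49.6 to 350 CPM. In CD3e-/- TAC 26.1% and in the TAC group labelled CD8-depleted 35.6% of the reads came from 1 cell, and over all gate cells 3 cells held 50% of the reads.

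Genes of peritoneal macrophages went with *Alox15* in these cells. In the 13 Saa3+ cells with *Alox15*, the 31 without it and the rest of the gate, *Prg4* (lubricin) lay at 3329, 270 and 1.88 CPM, *Gata6*, the transcription factor of large peritoneal macrophages, at 39.9, 9.49 and 0.697 CPM, and *Cxcl13*, a chemokine of B cell zones and body cavities, at 2920, 158 and 4.65 CPM. *Prg4* had reads in 13 of the 13 cells, *Gata6* in 9 and *Cxcl13* in 7, against 8, 4 and 3 of the 31 cells. *Ptgis*, the prostacyclin synthase, lay at 116, 3.12 and 0.580 CPM. *Arg1*, the arginase of alternatively activated macrophages, lay at 3638 and 3570 CPM with and without *Alox15*, and at 186 CPM in the rest of the gate, so it did not divide the Saa3+ cells. *Ptgs1* lay at 215 and 264 CPM and *Ltc4s*, the leukotriene C synthase, at 494 and 846 CPM. Saa3+ cells had a median of 230363 reads per cell, against 78111 to 168900 in the other gate classes. The 13 cells with *Alox15* had 23985 to 1513130 reads each. The part of depth in which Saa3+ cells had reads of *Alox15* was not tested.

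The comparisons over groups were read against all genes. A *gene* was compared where it had at least 10 CPM in 1 or both groups, and called where the log2 ratio of CPM + 10, which understates differences of low genes, was at least 2-fold. For WT TAC against WT sham 8 members were compared and 0 were called in either direction, where 0.824% of 9222 genes were called higher and 0.564% lower. For CD3e-/- TAC against CD3e-/- sham 1 of 9 members was called higher (*Alox15*) and 0 lower, against 1.64% and 1.05% of all genes. For CD3e-/- sham against WT sham 0 of 8 members were called, against 0.23% and 0.219%. For CD3e-/- TAC against WT TAC 1 of 9 was called higher (*Alox15*, log2 ratio 2.57) and 0 lower, against 0.354% and 0.177%. For the TAC group labelled CD8-depleted against WT TAC 1 of 9 was called higher (*Alox15*, 1.36) and 0 lower, against 0.121% and 0.132%. With so few members, 1 call is not a result about the list, and each of the 3 calls rested on the Saa3+ cells described above. The 3 comparisons that hold WT TAC share its cells, and so do the pairs that share a sham group.

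Below the call limit, the log2 ratio of WT TAC to WT sham was -0.93 for *Alox5*, 0.40 for *Ptgs2*, -0.33 for *Ptgs1*, -0.17 for *Ptges2*, -0.14 for *Hpgds*, -0.10 for *Lta4h*, -0.06 for *Tbxas1* and -0.01 for *Alox5ap*. In CD3e-/- mice it was -0.70 for *Alox5*, -0.54 for *Ptges2*, -0.49 for *Ptgs2*, -0.35 for *Lta4h*, 0.25 for *Ptgs1*, 0.19 for *Alox5ap*, -0.07 for *Tbxas1* and 0.06 for *Hpgds*. *Alox5* had the lowest of these ratios in both. Without CPM added, the ratio in CD3e-/- mice was -0.84 for *Alox5* and -1.13 for *Ptges2*, which lay at 6.18 CPM in CD3e-/- TAC. The medians of the members were -0.12 and -0.07, beside 0.03 and 0.05 over all genes compared. Between the genotypes after sham surgery, *Ptgs2* was higher (0.73) and *Hpgds* lower (-0.49) in CD3e-/- mice. After TAC *Ptges2* was lower in CD3e-/- mice (-0.39) and *Ptgs1* higher (0.50). Over the alternatives the range was -0.76 to -0.12 for *Ptges2*. For *Ptgs1* it was 0.06 to 0.69, with the lowest by the mean of single-cell CPM. In the TAC group labelled CD8-depleted *Ptgs2* was higher than in WT TAC (0.65), and the ratios of the other members apart from *Alox15* were between -0.23 and 0.25. The medians of these 3 comparisons were 0.04, -0.01 and 0.09 for the members and -0.03, -0.01 and 0.00 for all genes.

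**Figure D4:**
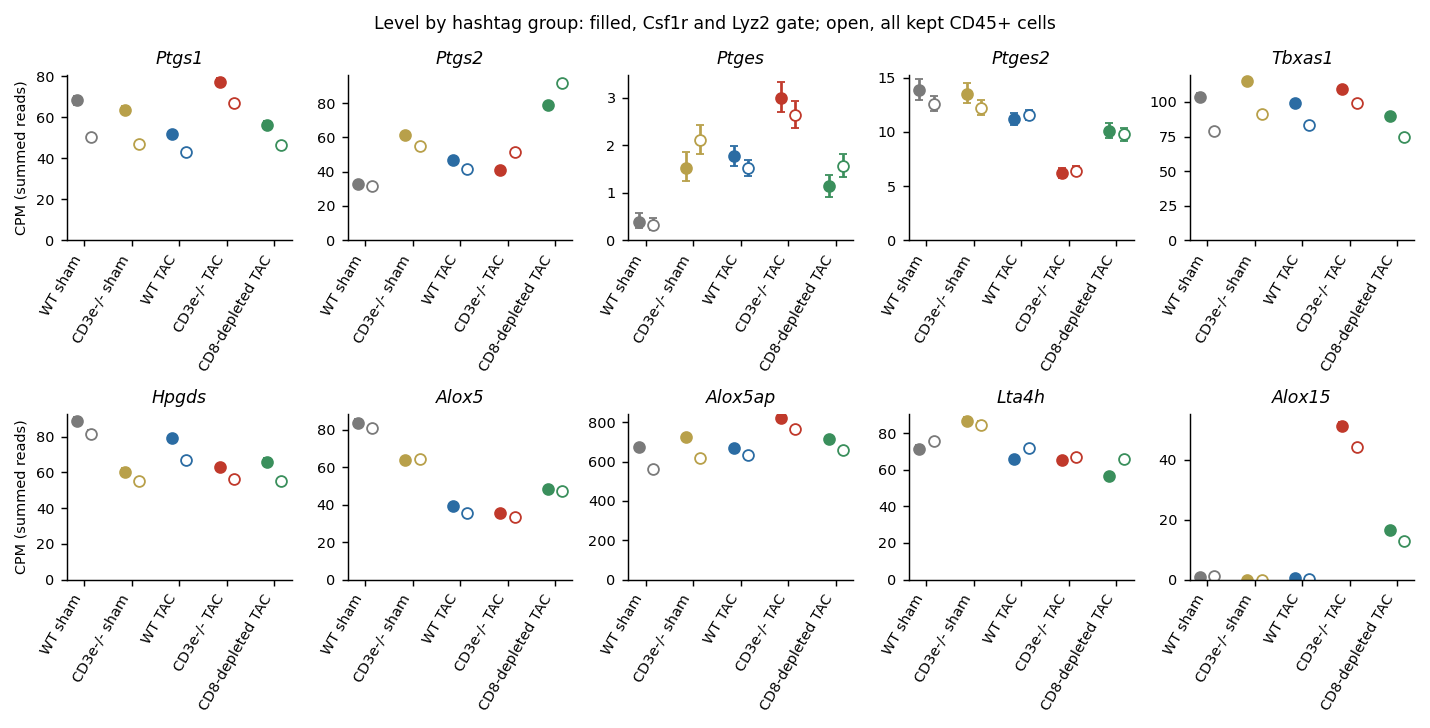
Level of each member by group in summed CPM, filled points for the monocyte and macrophage gate and open points for all kept CD45+ cells, with 95% Poisson intervals of the reads. *Alox5* is lower in the 3 TAC groups than in both sham groups, and *Alox15* is high only in CD3e-/- TAC and the TAC group labelled CD8-depleted.

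How many cells carry a *gene* set how far its group levels can be read. The top cell of a group gave 1.06% to 2.03% of the reads of *Alox5ap*, 1.25% to 3.20% of *Tbxas1*, 1.71% to 4.34% of *Lta4h*, 1.42% to 5.70% of *Hpgds*, 1.80% to 5.78% of *Ptgs1* and 3.50% to 8.14% of *Ptges2*. Over all gate cells, 50% of the reads came from 624 cells for *Alox5ap*, 353 for *Tbxas1*, 259 for *Lta4h*, 226 for *Hpgds*, 203 for *Alox5*, 169 for *Ptgs1* and 70 for *Ptges2*. For *Ptgs2* it was 50 cells, for *Ptges* 8 and for *Alox15* 3.

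**Figure D5:**
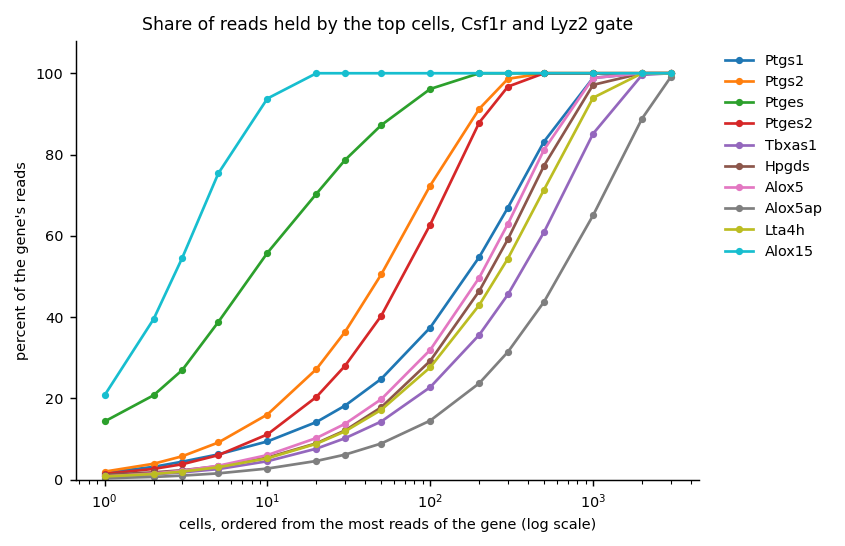
Percent of the reads of each member held by its top cells, against the number of cells on a log axis, over all cells of the monocyte and macrophage gate. The curve of *Alox15* passes 50% at 3 cells, that of *Ptges* at 8 and that of *Ptgs2* at 50, while *Alox5ap* needs 624.

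Members that act in sequence were also set side by side in single cells. Of thinned gate cells with *Ptgs1*, 58.0% had a read of *Tbxas1* and 43.1% one of *Hpgds*, against 46.0% and 27.5% of those without *Ptgs1*. Part of the latter followed the classes, since in Lyve1+ cells *Hpgds* had a read in 52.1% of cells with and 50% of cells without *Ptgs1*, and in Ccr2- Lyve1- cells in 58.6% and 45.4%. Over 50 units of class and group with at least 20 cells, which share 1 library and its depth, the log2 levels of *Tbxas1* and *Alox5ap* had r = 0.70, *Ptgs1* and *Hpgds* 0.69, *Hpgds* and *Alox5* 0.65, and *Hpgds* and *Lta4h* -0.43. These are descriptions, given without a test.

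The genes whose levels were most like those of a member over these 50 units were looked for among 8551 genes, by Pearson's r of log2(CPM + 10). For *Ptgs1* they were *Pdlim4* (0.88), *Rab11fip5* and *Mertk* (both 0.87), of which *Mertk* is a receptor by which macrophages take up dead cells. For *Ptgs2* they were *Hcar2*, a receptor for hydroxy acids, *Mefv*, the pyrin *gene*, and *Mcemp1*, each at 0.76. For *Tbxas1* they were *P2ry6* and *Hexa* (both 0.90) and *Asah1* (0.89), of which *P2ry6* is a nucleotide receptor and the others are lysosomal enzymes. For *Hpgds* they were *Cd63-ps* (0.86), *Sec14l1* (0.85) and *Itga9* (0.83), for *Alox5* *Tbc1d9b*, *Mvb12b* (both 0.78) and *Eef2k* (0.75), and for *Alox5ap* *Tyrobp*, an adaptor of myeloid receptors, *Sh3bgrl* (both 0.93) and *Gpx1* (0.92). *Lta4h* was most like *Cd209a* (0.77), by which 1 of the classes was gated, followed by *L1cam* and *Rin3* (both 0.76). *Alox15* was most like *Cxcl13* (0.94), *Saa3* and *Cd5l* (both 0.93), but by ranks these stood at only 0.41, -0.06 and 0.27, and only 1 unit of Saa3+ cells, that of CD3e-/- TAC, had enough cells to enter. By Spearman's rho the leading *gene* was the same for 3 of the 8 members (*Ptgs1*, *Ptgs2* and *Alox5*).

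Of 39 further genes of the pathway, all were in the matrix and 20 or 21 could be compared in the gate. None was called lower in any comparison, and 1 of 20 was called higher in CD3e-/- TAC, against CD3e-/- sham (1.64% of all genes) and against WT TAC (0.354% of all genes). This was *Ltc4s*, the leukotriene C synthase, at 44.7, 27.0, 33.8, 191 and 44.9 CPM (log2 ratios 2.44 and 2.20), with 688 CPM in Saa3+ and 435 CPM in Lyve1+ cells. Without the Saa3+ cells it lay at 139 CPM in CD3e-/- TAC and the log2 ratios were 2.01 and 1.84, so both calls held, with 12.0% of these reads in 1 cell. The medians of the list were 0.07, 0.02, -0.01, -0.02 and -0.00 in the order of the comparisons above. *Hpgd*, which breaks prostaglandins down, lay at 440, 312, 234, 162 and 264 CPM and like *Alox5* was lower in each TAC group, with log2 ratios to sham of -0.88 in WT and -0.90 in CD3e-/- mice. It was highest in Lyve1+ (645 CPM) and Ccr2- Lyve1- cells (401 CPM). *Pla2g7*, the phospholipase that degrades platelet activating factor, was higher after TAC, at 181, 179, 286, 274 and 253 CPM. Of the receptors, *Ltb4r1* for leukotriene B lay at 302 CPM in the ILC2 gate and 185 CPM in Cd209a+ cells, where *Lta4h* was also high, *Cysltr1* for cysteinyl leukotrienes at 272 CPM in Cd209a+ cells, and *Ptger4* for prostaglandin E at 140 CPM there. *Ptgir* for prostacyclin lay at 197 CPM in the ILC2 gate.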

How the data were processed

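CD45+ heart cells were measured in 1 cDNA and 1 hashtag library, with 1 sample per group, after Percoll separation and magnetic selection by the authors. The authors deposited raw counts, namely whole reads per *gene* and cell, without normalization. They kept barcodes above an inflection point, corrected read errors by distribution and assigned hashtags. The submitters' processing notes name cutadapt 2.10, Bowtie2 2.4.2 and GRCm38. Error correction left no value of *Ptgs2* under 6 reads and none of *Alox5ap* or *Alox15* under 8, and 743 of 27809 genes had a lowest value over 1 read. Of 5363 columns, 8 without a hashtag and 40 called doublets by the authors were left out, no further doublet caller was run, and cells with 500 genes or more and a mitochondrial share of at most 0.4 were kept.

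Gates were set in single-cell CPM, in the order *Saa3* (500), *Cd209a* (100), *Lyve1* (50), *Ly6c2* (500) and *Ccr2* (1000) within *Csf1r* (50) and *Lyz2* (500). The B cell gate needed *Cd79a* (500) and *Ms4a1* (50), the T and NK cell gate *Cd3g* (100) or *Nkg7* (1000), and 60 cells that met these and the monocyte and macrophage gate were set aside. Further gates used *Gata3* and *Il7r* (100 each), *Xcr1* (50), *Csf3r* (200) with *S100a8* (2000), and *Cpa3* or *Mcpt8* (500 each). Levels are summed reads over the total reads of the same cells. Thinning to 30000 reads (seed 1) left out 120 cells of the monocyte and macrophage gate. Ratios are log2 of CPM + 10. Intervals are exact Poisson for reads and exact Clopper-Pearson for shares, both of 95%. Because a group is 1 sample, no test was run and no p-value is given.

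The members, gates and lists were chosen with earlier results of these data known. Named genes were the 10 members, gate genes, checks of the labels, immediate early genes, pathway genes with at least 20 CPM in 1 class, and the 3 genes most like each member with at least 50 CPM in 1 unit of class and group. *Prg4*, *Gata6*, *Cxcl13*, *Arg1* and the granulocyte and mast cell genes were named after their values were seen. The tools were pandas 2.3.3, numpy 2.4.6, matplotlib 3.10.9 and scipy 1.17.1 in Python 3.11.15, and the ratios were tested on simulated data. Alternatives were other pseudocounts, filters, gates, scalings and cell sets.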

Additional observations from a re-analysis of the deposited data

Results flagged for a closer look

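*Ptgs1* and *Ptgs2* went opposite ways after TAC in the 2 genotypes, and the intervals of their reads did not overlap. These intervals cover counting error alone and not the spread between cells. In CD3e-/- sham *Ptgs2* lay in the gate at 61.4 CPM (59.5 to 63.3), and without its top cell at 54.0 CPM. The log2 ratio of TAC to sham for *Ptgs1* was -0.33 in WT and 0.25 in CD3e-/- mice, and for *Ptgs2* 0.40 in WT and -0.49 in CD3e-/- mice. With 1 sample per group the difference was not tested. For *Ptgs1* the ratio in CD3e-/- mice was -0.06 without the Saa3+ cells and -0.19 by the mean of single-cell CPM, so its opposite direction was lost. For *Ptgs2* the direction held under all 14 alternatives in both genotypes, with a range of 0.22 to 0.73 in WT mice and of -1.14 to -0.08 in CD3e-/- mice. A combination not among them, the mean of single-cell CPM over all kept cells, was higher after TAC in CD3e-/- mice (53.0 in sham and 85.9 in TAC). By class, Ly6c2+ cells kept both directions, but in WT sham only 2 of 24 of these cells had reads and 1 gave 74.1% of them. In Ccr2+ Ly6c2- cells the level was lower after TAC in CD3e-/- mice (50.9 and 18.6 CPM), where 1 cell gave 41.3% of the sham reads. In WT mice it was 47.55 (44.35 to 50.92) and 49.77 CPM (48.06 to 51.52) there, with overlapping intervals. In both genotypes the level was lower after TAC in Cd209a+ cells. In Lyve1+ cells it was higher, but only 2 cells of each WT group and 1 cell of each CD3e-/- group had reads there, so no direction is read. In Ccr2- Lyve1- cells the direction of WT mice was reversed, at 27.2 and 20.7 CPM. In CD3e-/- mice the level there was 32.8 (30.44 to 35.35) and 35.7 CPM (33.66 to 37.82), with overlapping intervals. The share of thinned cells with a read did not go with the ratio in CD3e-/- mice (9.41% in sham and 9.80% in TAC). The opposite direction is thus one of the level in few cells, and the top cell gave 5.24% to 15.1% of the reads of a group.

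In the 40 columns that the authors called doublets, which are in no comparison, *Hpgds* lay at 115 CPM (106 to 123) with reads in 20 columns, above the upper bound of 83.5 CPM in the higher sham group.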

How the results depend on the processing

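Of 43 ratios, 30 kept their direction under all 14 alternatives, and of 75 alternative counts of called members 10 had another value. For WT TAC against WT sham the count went from 0 to 1, with *Alox5* lower, when 1 CPM was added in place of 10, in cells below the median of immediate early genes (log2 ratio -1.15), and in all kept cells without the granulocyte gate (-1.01). For CD3e-/- TAC against CD3e-/- sham it went from 1 to 2, with *Ptges2* lower, with 1 CPM added and to 0 without Saa3+ cells. For CD3e-/- sham against WT sham it went from 0 to 1, with *Ptgs2* higher (1.79), in cells below that median. For CD3e-/- TAC against WT TAC it went from 1 to 0 in cells below that median and without Saa3+ cells, where the ratio of *Alox15* reversed to -0.032. For the TAC group labelled CD8-depleted against WT TAC it went from 1 to 0 with 50 CPM added and without Saa3+ cells. Leaving out the Saa3+ cells, the granulocyte gate, the mast cell gate or the top cell of a class was chosen after seeing the data. The cause of the other moves was not tested. No paired analysis was possible because each group is 1 sample and the result comes from no test. Scaling by the median of ratios moved the median of all genes by less than 0.1.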
